A study of Homo sapiens with 8 samples.

Results

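Metallothioneins and their transcription factor MTF1 were examined by RNA sequencing of WSU-DLCL2, an established cell line from a human diffuse large B-cell lymphoma. The 9 genes, taken by symbol, were MT1A, MT1E, MT1F, MT1G, MT1H, MT1M, MT1X, MT2A and MTF1, 9 of 60592 rows in each library. Cells overexpressing ferredoxin 1 (FDX1-OE) and control cells, whose genotype is labelled WT, received 15 nM elesclomol (ES) or its solvent DMSO for 48 h. The 4 groups, FDX1-OE ES, control ES, FDX1-OE DMSO and control DMSO, held 2 libraries each. The title of the series asks how a raised level of FDX1 alters the expression response to elesclomol. How FDX1 was overexpressed, whether the line is a clone or a pool, and whether a group's 2 libraries are from separate cultures are not given in the sources used here. The p-values therefore reflect only how far these samples spread, which may be technical variation.

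Metallothioneins are small cysteine-rich proteins that bind zinc and copper and so buffer both metals in the cell. Their genes carry short metal response elements in the promoter, and MTF1 is the zinc finger factor that, when free zinc rises, enters the nucleus and binds these elements; neither step is measured by transcript levels. Copper can act on this switch by displacing zinc from metallothioneins and other proteins. Elesclomol is a small molecule that binds copper and carries it into cells and mitochondria, and FDX1 is a mitochondrial iron-sulfur protein known to reduce elesclomol-bound copper.

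Values are FPKM (fragments scaled to gene length and library size) as deposited, which allow genes to be compared per length. The absolute depth is unknown. The FPKM summed to 408018 and 403024 in the FDX1-OE ES libraries, which stood apart, and to between 445716 and 451027 in the other 6. The metallothionein calls with ES and between FDX1-OE and control cells in ES held under 3 other scalings of the libraries. FDX1 was at 60.7 and 59.4 FPKM in FDX1-OE ES libraries, against 9.88 and 10.0 FPKM in control ES libraries. It was at 59.8 and 56.0 FPKM in FDX1-OE DMSO libraries, against 10.8 and 10.4 FPKM in control DMSO libraries. The labels and the targeted gene therefore match in all 8 libraries. All 7 B cell markers were at 1 FPKM or more in every library, and their summed level lay between 1368 and 1510 FPKM. Markers of T and NK cells summed to at most 0.384 FPKM with 5 of 7 at 0 in every library, myeloid markers to at most 0.638 FPKM with 1 of 6 at 0 in every library, and epithelial and fibroblast markers to between 1.09 and 1.77 FPKM with 2 of 10 at 0 in every library. Each value is a share of a library, so fewer cells with a transcript and less transcript per cell cannot be told apart.

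The promoters of the responsive genes are shown because they carry the letters that MTF1 is known to bind. Of the 9 genes, 4 had a promoter in the RefSeq table for GRCh38.p14: MT2A, MT1H, MT1X and MTF1. The window runs from 250 bases before the annotated start to 50 bases after it. Capitals mark matches to the metal response element core, TGCACNC or TGCGCNC, on either strand. The windows are chr16:56608334-56608633 for MT2A, chr16:56669564-56669863 for MT1H and chr16:56682220-56682519 for MT1X, all on the plus strand, and chr1:211579112-211579411 on the minus strand for SLC30A1, a zinc exporter that MTF1 is known to induce.
MT2A: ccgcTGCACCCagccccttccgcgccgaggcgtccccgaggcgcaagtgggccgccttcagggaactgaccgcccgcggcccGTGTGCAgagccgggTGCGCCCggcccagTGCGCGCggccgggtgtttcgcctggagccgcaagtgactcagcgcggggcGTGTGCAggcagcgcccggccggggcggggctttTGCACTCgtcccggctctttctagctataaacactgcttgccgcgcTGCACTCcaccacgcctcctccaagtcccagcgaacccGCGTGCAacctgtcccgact
MT1H: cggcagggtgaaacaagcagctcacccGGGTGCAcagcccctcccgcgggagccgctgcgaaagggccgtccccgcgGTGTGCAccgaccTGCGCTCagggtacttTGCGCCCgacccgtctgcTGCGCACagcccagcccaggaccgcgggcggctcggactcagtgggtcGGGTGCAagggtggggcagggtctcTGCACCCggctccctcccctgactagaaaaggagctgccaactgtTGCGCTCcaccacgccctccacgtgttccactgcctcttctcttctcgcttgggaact
MT1X: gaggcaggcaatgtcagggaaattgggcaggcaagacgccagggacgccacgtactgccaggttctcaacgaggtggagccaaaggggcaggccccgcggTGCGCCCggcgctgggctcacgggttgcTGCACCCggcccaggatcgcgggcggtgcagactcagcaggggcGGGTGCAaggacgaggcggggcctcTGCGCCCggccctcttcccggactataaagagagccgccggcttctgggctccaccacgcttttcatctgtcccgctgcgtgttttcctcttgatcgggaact
SLC30A1: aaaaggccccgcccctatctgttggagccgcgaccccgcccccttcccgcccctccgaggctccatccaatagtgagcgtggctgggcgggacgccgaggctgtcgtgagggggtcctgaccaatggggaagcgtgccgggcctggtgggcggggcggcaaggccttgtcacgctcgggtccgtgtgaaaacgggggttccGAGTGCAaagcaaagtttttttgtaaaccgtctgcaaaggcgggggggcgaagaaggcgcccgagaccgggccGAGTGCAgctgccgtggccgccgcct

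The core occurred 8 times in the MT2A window, 8 times in the MT1H window and 4 times in the MT1X window. It occurred 2 times in the SLC30A1 window and 0 times in the MTF1 window (chr1:37859543-37859842, minus strand). Of all 35116 promoters of the same length, 29.6% held at least 1 match, 8.60% at least 2, 0.601% at least 4 and 0.0199% at least 8. Matches began at -78 and at -53 from the start in both MT1H and MT1X, and at -88 and -54 in MT2A. A TATA box, spelled TATAAA, began at -29 in MT2A and at -30 in MT1X, and 11.5% of all promoters held these letters on either strand. The antioxidant response element core TGACNNNGC was found 1 time each in MT2A, MT1X and SLC30A1, and in 13.3% of all promoters. In MT2A, MT1X and SLC30A1 none of these antioxidant and TATA matches overlapped a metal response element match. A match describes letters in a window and is not evidence of binding.

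Elesclomol was followed by a large rise of the metallothioneins in both kinds of cell. Their summed level was 617 and 915 FPKM in FDX1-OE ES libraries and 35.6 and 42.0 FPKM in FDX1-OE DMSO libraries, a ratio of means of 19.8. Control cells had 325 and 337 FPKM with ES and 54.9 and 51.1 FPKM with DMSO, a ratio of 6.25. No ES library overlapped a DMSO library, and FDX1-OE cells were higher than control cells in ES but lower in DMSO. The sum made up 0.151% and 0.227% of all FPKM in FDX1-OE ES libraries and 0.0114% to 0.0122% in control DMSO libraries.

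**Figure D1:**
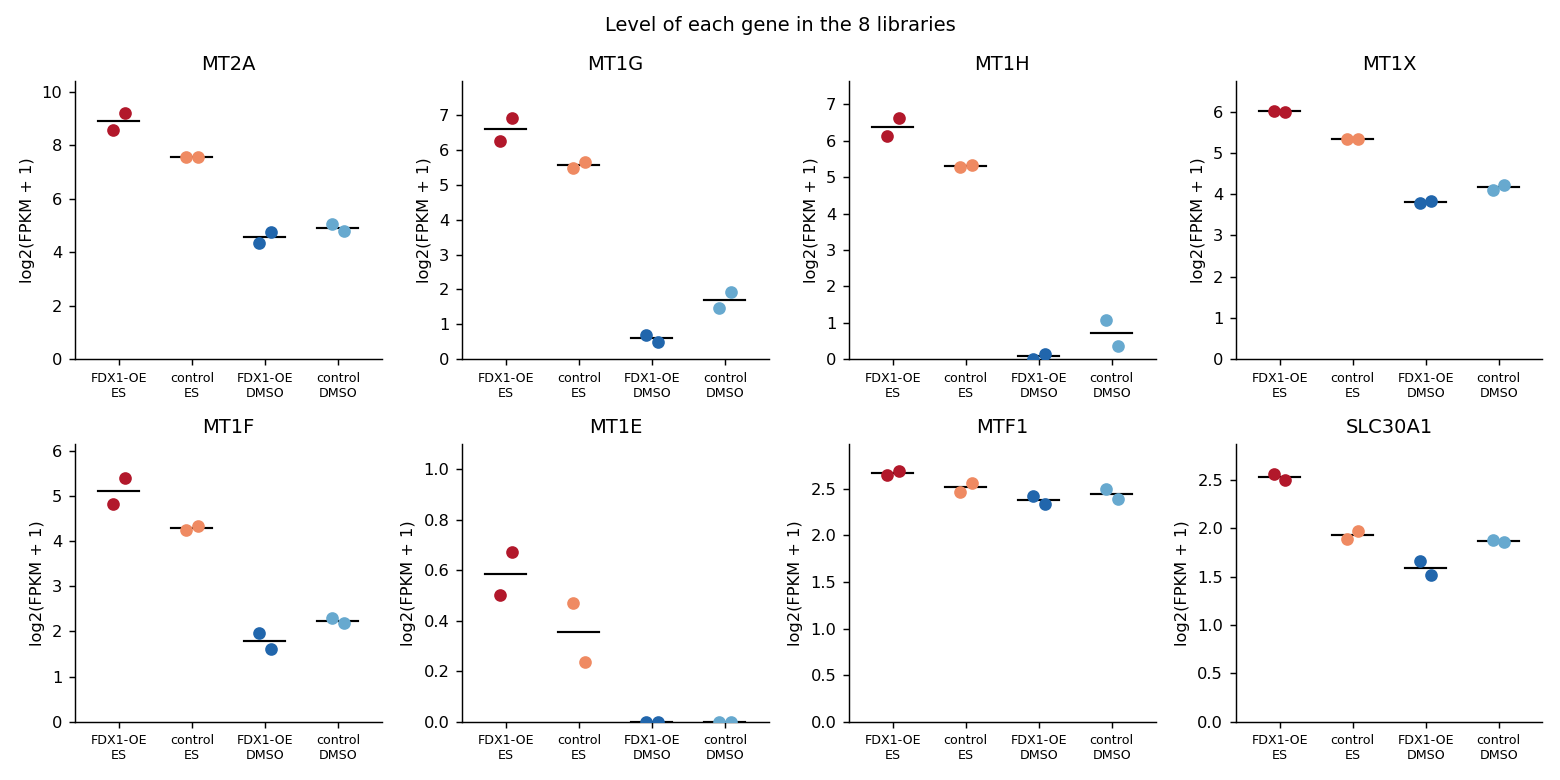
Level of 8 genes as log2(FPKM + 1), with 1 point per library, a line at the mean of each group of 2, and groups on the x axis. In MT2A, MT1G, MT1H, MT1X and MT1F both FDX1-OE ES libraries lie above both control ES libraries, and both FDX1-OE DMSO libraries lie below both control DMSO libraries; the scale of the y axis differs between panels.

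MT2A, the most abundant metallothionein here, was at 382 and 591 FPKM in FDX1-OE ES libraries, against 186 and 189 FPKM in control ES libraries. With DMSO it was at 19.3 and 26.0 FPKM in FDX1-OE cells, against 32.0 and 26.7 FPKM in control cells. All 4 ES libraries exceeded every DMSO library, and the 2 FDX1-OE ES libraries were the highest but differed from each other more than the control ES libraries did. The mean was 486 ± 148 FPKM in FDX1-OE ES and 22.7 ± 4.77 FPKM in FDX1-OE DMSO, a ratio of 21.5 (SD, n = 2 each). In control cells the mean was 188 ± 2.71 FPKM in ES and 29.3 ± 3.77 FPKM in DMSO, a ratio of 6.39 (SD, n = 2 each). On the log2(FPKM + 1) scale, which understates the change of low values, the effect of ES was 4.35 (SE 0.20, adjusted p = 4.59e-06) in FDX1-OE cells and 2.64 (SE 0.20, adjusted p = 0.000825) in control cells.

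MT1G, a metallothionein 1 gene whose product binds zinc and copper like MT2A, was nearly silent without drug. It was at 75.4 and 122 FPKM in FDX1-OE ES libraries, against 0.625 and 0.416 FPKM in FDX1-OE DMSO libraries. Control cells had 43.6 and 49.5 FPKM with ES, against 1.77 and 2.83 FPKM with DMSO. The groups did not overlap in either kind of cell, and the FDX1-OE DMSO libraries were the lowest of the 8. The effect of ES on the log2(FPKM + 1) scale was 6.0 (SE 0.23, adjusted p = 2.18e-06) in FDX1-OE cells and 3.87 (SE 0.23, adjusted p = 0.000253) in control cells. As a ratio of mean FPKM it was 189.7 in FDX1-OE cells and 20.3 in control cells.

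MT1H, the neighbour of MT1G on the chromosome, was likewise near 0 without drug. It was at 68.6 and 97.3 FPKM in FDX1-OE ES libraries, against 0 and 0.102 FPKM in FDX1-OE DMSO libraries. The control libraries held 38.2 and 39.5 FPKM with ES, against 1.12 and 0.286 FPKM with DMSO. Only 1 of the 4 DMSO libraries reached 1 FPKM, so MT1H passed the filter on low values through its ES libraries. The effect of ES was 6.30 (SE 0.23, adjusted p = 2.18e-06) in FDX1-OE cells and 4.59 (SE 0.23, adjusted p = 0.000253) in control cells. With a library at 0, no ratio of FPKM is given for FDX1-OE cells, and with a pseudocount of 0.1 in place of 1 the log2 effect there was 9.17.

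MT1X, like MT2A, stood above MT1G, MT1H and MT1F in its level without drug. It was at 63.8 and 63.1 FPKM in FDX1-OE ES libraries, against 12.8 and 13.4 FPKM in FDX1-OE DMSO libraries. In the control libraries MT1X was at 39.4 and 39.2 FPKM with ES, against 16.1 and 17.8 FPKM with DMSO. The replicates lay close together in every group and no groups overlapped. The effect of ES was 2.20 (SE 0.07, adjusted p = 1.50e-06) in FDX1-OE cells and 1.17 (SE 0.07, adjusted p = 0.000253) in control cells. MT1F was at 27.4 and 41.4 FPKM in FDX1-OE ES libraries, against 2.89 and 2.06 FPKM in FDX1-OE DMSO libraries. In control cells it was at 18.0 and 19.2 FPKM with ES, against 3.90 and 3.52 FPKM with DMSO. Its ES libraries lay apart from its DMSO libraries in both kinds of cell, with effects of 3.33 (SE 0.18, adjusted p = 1.07e-05) and 2.06 (SE 0.18, adjusted p = 0.00173) in FDX1-OE and control cells.

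The remaining metallothioneins of the list were low or listed at 0. MT1E was at 0.415 and 0.593 FPKM in FDX1-OE ES libraries, 0.385 and 0.179 FPKM in control ES libraries and 0 in all 4 DMSO libraries. It did not pass the filter of 1 FPKM in 2 libraries. With no filter it entered the limma fit only through its ES libraries. ES against DMSO then had an adjusted p of 0.00567 in FDX1-OE cells and 0.134 in control cells. These values of MT1E are a description and support nothing. MT1A and MT1M were listed at 0 in all 8 libraries. Of 82 ribosomal protein genes with RPL or RPS symbols, used as a check of zeros, 3 had a 0 in any library, RPL10L, RPL3L and RPS4Y2. The absolute depth is unknown, so no lower limit of detection is given.

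In FDX1-OE cells 6 of the 6 members that could be tested rose with ES, where 47.1% of the 12063 rows tested were called higher and 13.7% lower. For MTF1 the call was lost with median-ratio scaling (adjusted p = 0.613) and the sign turned with quantile normalization. In control cells 5 of 6 rose, where 6.74% of rows were called higher and 1.00% lower, and MTF1 was the exception. All 5 tested metallothioneins had ES libraries apart from and above the DMSO libraries in both kinds of cell; 58.9% of rows did so in FDX1-OE cells and 48.2% in control cells. The median effect of ES over the 5 was 4.35 in FDX1-OE cells and 2.64 in control cells, beside medians over all rows of 0.25 and 0.09. Among the 12063 rows, MT1H, MT1G, MT2A, MT1F and MT1X ranked 2, 3, 10, 29 and 85 by the size of the rise in FDX1-OE cells. In control cells the same 5 genes ranked 1, 2, 7, 8 and 40. MT1H entered the tested rows only through its ES libraries, so its place in these counts, medians and ranks is a description and supports nothing. Without control ES replicate 2 the number of rows called in control cells dropped to 28, beside 934 with all libraries, and the 5 metallothioneins were still called.

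**Figure D2:**
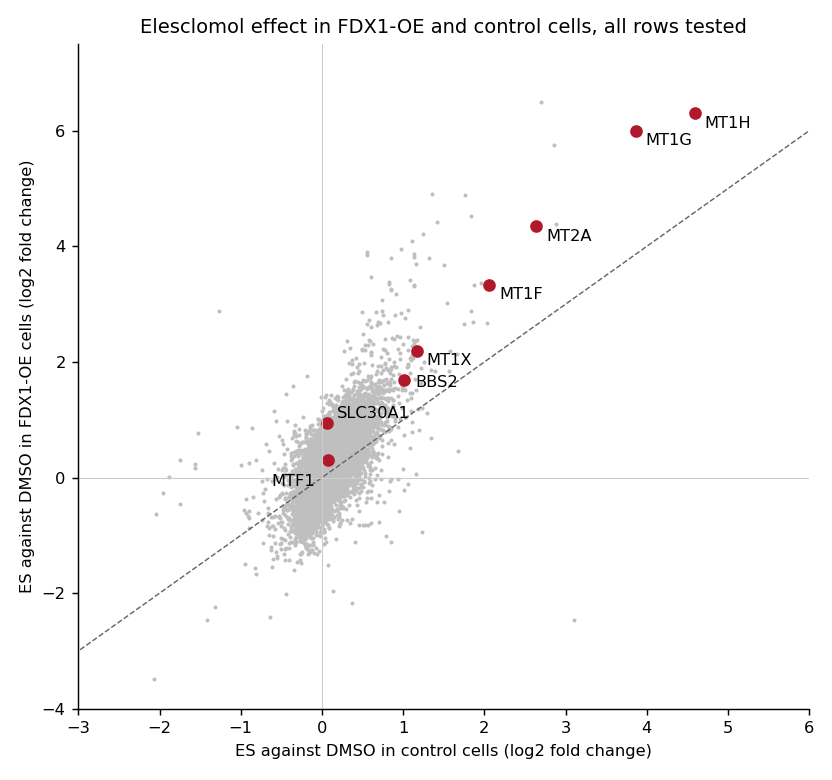
Log2 fold change of ES against DMSO in FDX1-OE cells (y axis) and in control cells (x axis) for the 12063 rows tested (grey), with 5 metallothioneins, MTF1, SLC30A1 and BBS2 in red; the dashed line marks equal effects. MT1H lies at 6.30 and 4.59 and MT1G at 6.0 and 3.87, all 5 metallothioneins lie above the line, and MTF1 lies at 0.30 and 0.07.

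In ES, FDX1-OE cells held more metallothionein transcript than control cells. The summed level was 766 ± 211 FPKM in FDX1-OE ES and 331 ± 8.36 FPKM in control ES (SD, n = 2 each), a ratio of 2.31 that ranged from 1.83 to 2.81 over pairs of libraries. MT2A made up 68.7% of that difference. The log2 fold changes were 1.34 for MT2A (SE 0.20, adjusted p = 0.00210), 1.05 for MT1H (SE 0.23, adjusted p = 0.00872) and 1.03 for MT1G (SE 0.23, adjusted p = 0.00866). They were 0.82 for MT1F (SE 0.18, adjusted p = 0.00936) and 0.68 for MT1X (SE 0.07, adjusted p = 0.000495). The 5 metallothioneins were thus higher, 5 of 6 members tested, where 31.1% of rows were called higher and 10.4% lower. Their FDX1-OE ES libraries lay above both control ES libraries in 5 of 5, as in 50.6% of all rows, and their median log2 fold change was 1.03, beside 0.16 over all rows.

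This comparison rested partly on single libraries. Without control ES replicate 1, MT2A and MT1X were still called, and the other metallothioneins were not: MT1F had a log2 fold change of 0.78 (adjusted p = 0.0613), MT1G of 0.94 (adjusted p = 0.0619) and MT1H of 1.03 (adjusted p = 0.0545). The FDX1-OE ES libraries differed from each other in these genes and over all rows. The median absolute log2 difference of the 2 libraries over all rows was 0.165 in FDX1-OE ES and 0.0876 in control ES. It was 0.0750 in FDX1-OE DMSO and 0.0753 in control DMSO. The fit uses 1 variance per row for all groups, so the SE of a gene does not show this difference in spread. Replicate 2 over replicate 1 was 1.62 for MT1G, 1.55 for MT2A, 1.51 for MT1F and 1.42 for MT1H, but 0.989 for MT1X and 1.04 for MTF1. Without FDX1-OE ES replicate 2 the log2 fold change was 0.54 for MT1F and 0.69 for MT1G, and both were still called.

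In DMSO the direction was the other way but passed no test. The summed level was 38.8 ± 4.52 FPKM in FDX1-OE DMSO and 53.0 ± 2.66 FPKM in control DMSO (SD, n = 2 each), a ratio of 0.732 that ranged from 0.648 to 0.821 over pairs. MT1G averaged 0.520 ± 0.148 FPKM in FDX1-OE DMSO and 2.30 ± 0.748 FPKM in control DMSO. MT1X averaged 13.1 ± 0.415 FPKM in FDX1-OE DMSO and 17.0 ± 1.21 FPKM in control DMSO. Both FDX1-OE libraries lay below both control libraries in 5 of 5 metallothioneins, as in 19.5% of all rows. By limma 0 of 6 members were called, each with an adjusted p of 0.999, and 4 of 6 had an unadjusted p below 0.05. Those were MT1G, MT1H, MT1F and MT1X, with log2 fold changes of -1.10, -0.65, -0.45 and -0.35, and MT2A had -0.37. MT1H entered the tested rows only through its ES libraries, so its place in these DMSO counts is a description and supports nothing. Leaving out 1 library moved MT1H to -0.29 (without control DMSO replicate 1) or -1.01 (without control DMSO replicate 2) and MT1F to -0.27 (without FDX1-OE DMSO replicate 2). MT2A moved to -0.24 without control DMSO replicate 1, -0.16 without FDX1-OE DMSO replicate 1 and -0.58 without FDX1-OE DMSO replicate 2. Over all rows 0.00829% were called higher, which was FDX1 alone, and 0% lower, while 420 of 12063 rows had an unadjusted p below 0.05. With a pseudocount of 0.1 the log2 fold change was -2.27 for MT1H and -1.94 for MT1G, and neither was called.

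The ES effect itself was larger in FDX1-OE cells than in control cells. The difference between both effects, tested as an interaction, was 2.13 for MT1G (SE 0.32, adjusted p = 0.00656), 1.71 for MT1H (SE 0.33, adjusted p = 0.0134) and 1.70 for MT2A (SE 0.29, adjusted p = 0.00906). It was 1.27 for MT1F (SE 0.26, adjusted p = 0.0161) and 1.03 for MT1X (SE 0.10, adjusted p = 0.00145). The 5 metallothioneins were called, 5 of 6 members tested, where 13.9% of rows were called higher and 5.06% lower. MT1H entered the tested rows only through its ES libraries, so its place in this count is a description and supports nothing. Both a higher level in ES and a lower level in DMSO enter this difference. In the summed level, the ratio of ES to DMSO was 3.16 times as large in FDX1-OE cells. Without control ES replicate 1 the count of members called was 3, since MT1F (adjusted p = 0.0671) and MT1H (adjusted p = 0.0562) were lost. MT1F was also lost without control DMSO replicate 1 (adjusted p = 0.0592) or FDX1-OE DMSO replicate 2 (adjusted p = 0.0620), and MT1H without FDX1-OE DMSO replicate 1 (adjusted p = 0.0537).

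**Figure D3:**
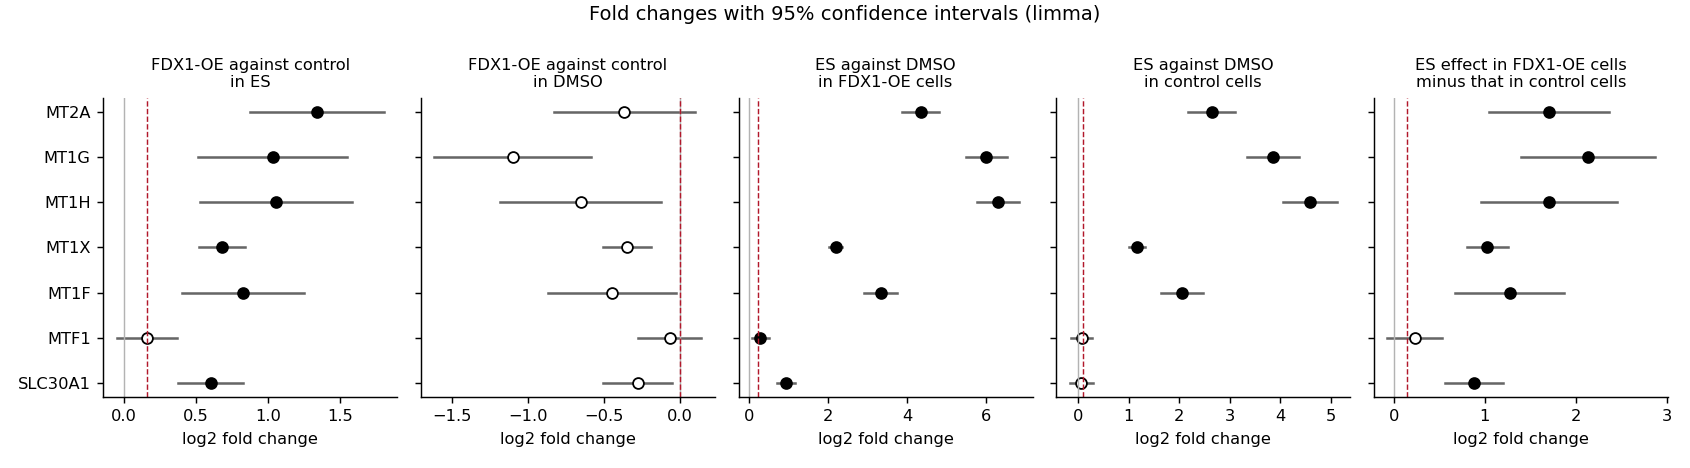
Log2 fold changes (x axis) of 5 metallothioneins, MTF1 and SLC30A1 (y axis) in the 5 comparisons, with 95% confidence intervals from limma; filled points were called, open points were not, and the dashed red line is the median over all rows. All 5 metallothioneins are called in every panel but that of FDX1-OE against control in DMSO, where their values run from -1.10 to -0.35.

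The shares of rows called depend on how libraries are scaled, because the median row itself moved by 0.25 with ES in FDX1-OE cells and by 0.16 between FDX1-OE and control cells in ES. With median-ratio scaling 25.4% of rows were called higher and 27.2% lower with ES in FDX1-OE cells. With that scaling 15.1% were called higher and 18.4% lower between FDX1-OE and control cells in ES, 3.61% and 3.27% for ES in control cells, and 5.85% and 9.40% for the interaction. The 5 metallothioneins were called higher in these 4 comparisons under median-ratio scaling, quantile normalization and equal FPKM totals alike.

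The make-up of the metallothionein transcripts shifted with ES. MT2A held 52.2% to 64.6% of the summed FPKM in all 8 libraries. MT1X held 6.89% to 12.1% in ES libraries and 29.3% to 35.9% in DMSO libraries. MT1G held 12.2% to 14.7% in ES libraries and 0.990% to 5.53% in DMSO libraries, and MT1H 10.6% to 11.7% in ES libraries and 0% to 2.04% in DMSO libraries. In FDX1-OE ES the order of mean levels was MT2A, MT1G, MT1H, MT1X, MT1F, MTF1 and MT1E, and the ranges of MT1G and MT1H overlapped. In control ES the order was MT2A, MT1G, MT1X, MT1H, MT1F, MTF1 and MT1E, and the ranges of MT1X and MT1H overlapped. In both DMSO groups MT2A and MT1X led, followed by MTF1, MT1F, MT1G and MT1H.

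**Figure D4:**
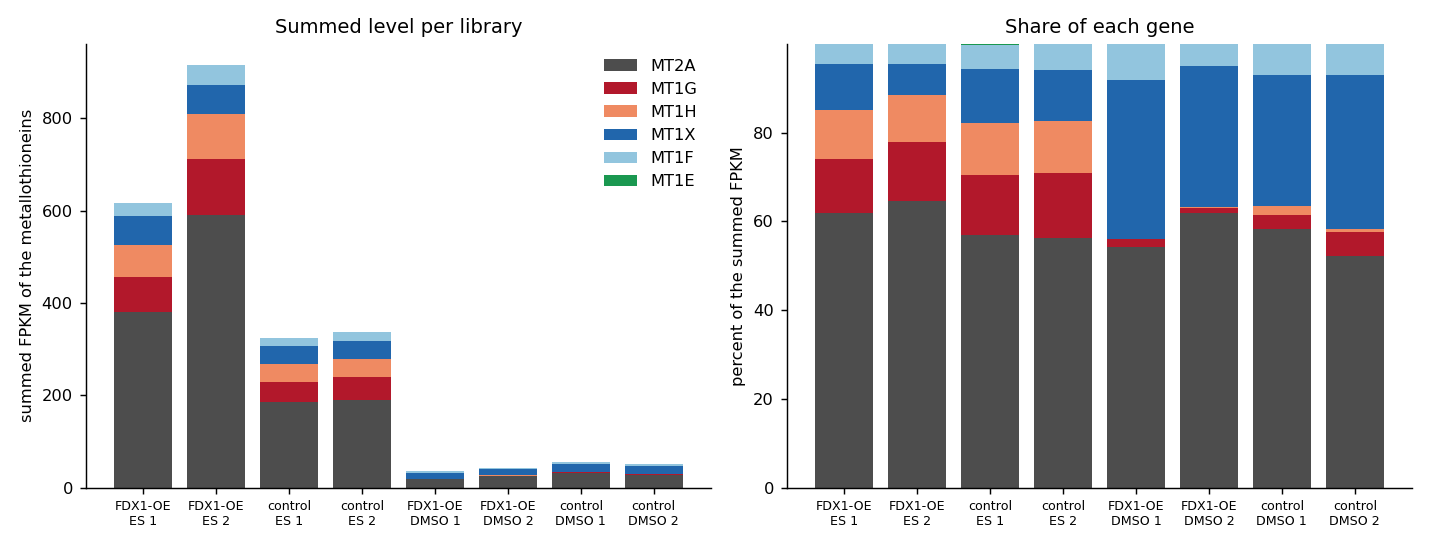
Summed FPKM of the metallothioneins in each of the 8 libraries (left, stacked by gene) and the percent of that sum held by each gene (right). The sum is 617 and 915 FPKM in FDX1-OE ES, 325 and 337 FPKM in control ES and at most 54.9 FPKM in DMSO, and the share of MT1X is smaller in ES than in DMSO.

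The metallothionein genes of the list other than MTF1 lie in 1 cluster on chromosome 16, at chr16:56608199-56684196 in GENCODE 29 on GRCh38, a span of 76.0 kb. The submitters' processing notes name hg19, another build, so these positions serve only to show which genes neighbour each other. The cluster holds 7 listed genes on the plus strand and MT1G on the minus strand. MT2A stands at its start and MT1F, MT1G, MT1H and MT1X stand at its far end, with starts (the lower coordinate of each gene, whatever its strand) 49.5, 58.5, 61.6 and 74.2 kb from that of MT2A. Between them lie MT1L, MT1E, MT1M, MT1JP, MT1A, MT1DP, MT1CP and MT1B, and no library had more than 4.01 FPKM of any of these. MT1DP, a pseudogene, reached that value: it was at 1.77 and 4.01 FPKM in FDX1-OE ES libraries, against 0.679 and 0 FPKM in FDX1-OE DMSO libraries. It passed the filter only through ES libraries. Its ES effect in FDX1-OE cells was 1.52 (SE 0.36, adjusted p = 0.00676), with an adjusted p of 0.0510 without FDX1-OE DMSO replicate 2. In control cells it was at 2.17 and 0.836 FPKM with ES, against 0.164 and 0 FPKM with DMSO (adjusted p = 0.0852). Of 12 further metallothionein rows and pseudogenes in the files, 8 were at 0 in all libraries and MT1DP was the only one tested.

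**Figure D5:**
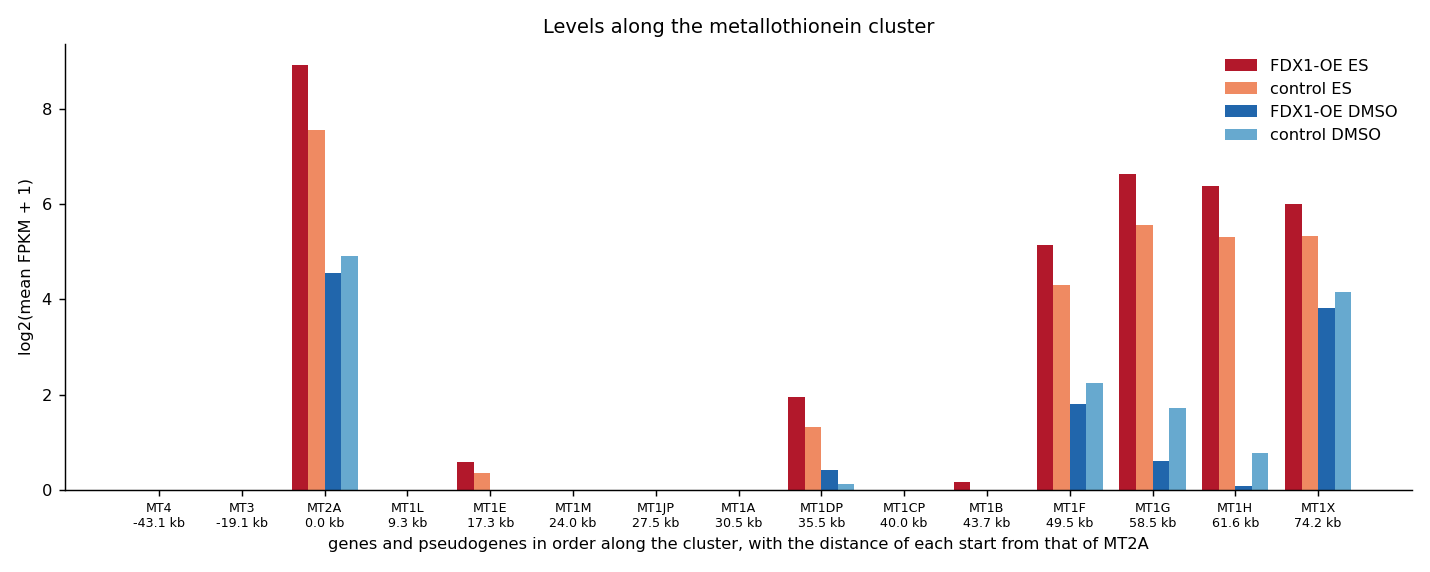
Mean level of each gene, as log2(mean FPKM + 1), in the 4 groups (bars), for metallothionein genes and pseudogenes in their order along chromosome 16 (x axis, with the distance of each start from that of MT2A in kb). The tall bars stand at MT2A and, from 49.5 kb on, at MT1F, MT1G, MT1H and MT1X, and MT1DP is the only other gene above 1 on this scale.

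These genes are close copies, and how the authors' counting treated reads that fit several of them is not given. In GENCODE 29 transcripts 14.7% of 50-base windows of MT1X occur in another gene, 13.4% in the overlapping same-strand gene AC026461.1, which was listed at 0 in all libraries. The shares were 14.3% for MT1G, 10.2% for MT1H, 4.68% for MT2A and 0.066% for MT1F. How reads shared between these genes bear on their levels was not tested. The split of reads between MT1G and MT1H in particular is uncertain, since 8.33% of MT1H windows occur in MT1G.

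MTF1, the factor that turns these genes on, changed little. It was at 5.28 and 5.47 FPKM in FDX1-OE ES libraries, against 4.53 and 4.90 FPKM in control ES libraries. It was at 4.34 and 4.05 FPKM in FDX1-OE DMSO libraries, against 4.66 and 4.24 FPKM in control DMSO libraries. The FDX1-OE ES libraries were the highest of the 8, and the DMSO groups overlapped. The ES effect in FDX1-OE cells was 0.30 (SE 0.09, adjusted p = 0.0225), 0.05 above the median of all rows. That call was lost with median-ratio scaling (0.057, adjusted p = 0.613), and the sign turned with quantile normalization (-0.081, adjusted p = 0.485). It was also lost without FDX1-OE DMSO replicate 1 (adjusted p = 0.0559), FDX1-OE DMSO replicate 2 (adjusted p = 0.124) or FDX1-OE ES replicate 2 (adjusted p = 0.0535). In control cells the ES effect was 0.07 (SE 0.09, adjusted p = 0.660), FDX1-OE against control in ES gave 0.16 (SE 0.09, adjusted p = 0.197), and the interaction was 0.23 (SE 0.13, adjusted p = 0.241).

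Of 8 known MTF1 targets outside the family present in the files, 5 were tested. SLC30A1, which exports zinc from the cell, was at 4.89 and 4.64 FPKM in FDX1-OE ES libraries, against 2.69 and 2.91 FPKM in control ES libraries. It was at 2.16 and 1.86 FPKM in FDX1-OE DMSO libraries, against 2.68 and 2.63 FPKM in control DMSO libraries. Both FDX1-OE ES libraries stood above the other 6. SLC30A1 rose with ES in FDX1-OE cells by 0.94 (SE 0.10, adjusted p = 0.000142) and was 0.60 higher in FDX1-OE than in control cells in ES (SE 0.10, adjusted p = 0.00285). In control cells its ES effect was 0.06 (SE 0.10, adjusted p = 0.737), and the interaction was 0.88 (SE 0.14, adjusted p = 0.00782). With quantile normalization the first 2 of these values were 0.52 and 0.35, and both were still called.

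The other tested targets moved less. In FDX1-OE cells with ES 2 of 5 rose and 1 fell, beside 47.1% and 13.7% of all rows. In addition to SLC30A1, GCLC, the catalytic subunit that makes the glutathione precursor, had a log2 fold change of 0.37 (SE 0.10, adjusted p = 0.0115), and SLC39A10, a zinc importer that MTF1 represses, fell by 0.44 on the log2 scale (SE 0.11, adjusted p = 0.00868). Between FDX1-OE and control cells in ES 2 of 5 were higher and 1 lower, beside 31.1% and 10.4% of all rows, GCLC by 0.35 (adjusted p = 0.0241) and SLC39A10 by -0.41 (adjusted p = 0.0202). The GCLC calls were lost with median-ratio scaling (adjusted p = 0.362 for ES in FDX1-OE cells and 0.172 for FDX1-OE against control in ES). For ES in FDX1-OE cells, GCLC (adjusted p = 0.0697) and SLC39A10 (adjusted p = 0.0704) were also lost without FDX1-OE DMSO replicate 1. For FDX1-OE against control in ES, GCLC was lost without control ES replicate 1, control ES replicate 2 or FDX1-OE ES replicate 1 (adjusted p = 0.0666 to 0.120). In that comparison SLC39A10 was lost without control ES replicate 1 (adjusted p = 0.122) or FDX1-OE ES replicate 2 (adjusted p = 0.0547). In control cells 1 of 5 rose, SELENOW, a selenoprotein, by 0.51 (SE 0.12, adjusted p = 0.0450), a call lost without either control DMSO library, either FDX1-OE DMSO library or control ES replicate 2 (adjusted p = 0.0727 to 0.245), with median-ratio scaling (adjusted p = 0.0759) or with a replicate block (adjusted p = 0.0635). For ES in control cells 6.74% of all rows were called higher. In the interaction 1 of 5 was called, SLC30A1, beside 13.9% of all rows called higher, and in DMSO 0 of 5 were. The median log2 fold change of the 5 was 0.28 with ES in FDX1-OE cells and -0.04 between FDX1-OE and control cells in ES, beside 0.25 and 0.16 over all rows.

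Among 7 other factors known to act on metallothionein promoters (SP1, EP300, USF1, NR3C1, STAT3, NFE2L2 and HSF1), 5 rose with ES in FDX1-OE cells, beside 47.1% of all rows, and 1 in control cells, beside 6.74%. With median-ratio scaling the calls of USF1 (adjusted p = 0.0877), STAT3 (adjusted p = 0.262) and HSF1 (adjusted p = 0.0939) in FDX1-OE cells were lost. EP300, a histone acetyltransferase that MTF1 recruits, rose by 0.57 in FDX1-OE cells (SE 0.07, adjusted p = 0.000251) and by 0.06 in control cells (adjusted p = 0.618). NFE2L2, which encodes the oxidant-responsive factor NRF2, was 0.56 higher in FDX1-OE than in control cells in ES (SE 0.08, adjusted p = 0.00158). HSF1, the heat shock factor, rose by 0.46 in FDX1-OE cells (adjusted p = 0.00156) and 0.34 in control cells (adjusted p = 0.0450), and the control call was lost without any 1 of the 6 libraries outside FDX1-OE ES (adjusted p = 0.0866 to 0.254), with median-ratio scaling (adjusted p = 0.127) or with a replicate block (adjusted p = 0.0609). Between FDX1-OE and control cells in ES 4 of 7 were higher, beside 31.1% of all rows, and in DMSO 0 of 7 were called. Of these 4, USF1 was lost with median-ratio scaling (adjusted p = 0.110) or without control ES replicate 2 (adjusted p = 0.0521), and STAT3 with median-ratio scaling (adjusted p = 0.207) or without control ES replicate 1 (adjusted p = 0.132). In the interaction 2 of 7 were called higher, beside 13.9% of all rows: EP300 (0.51, adjusted p = 0.0129) and NFE2L2 (0.42, adjusted p = 0.0355). EP300 was lost without any 1 of the 4 DMSO libraries or control ES replicate 1. NFE2L2 was lost without any 1 of the 6 libraries outside FDX1-OE ES. It was also lost with median-ratio scaling (0.25, adjusted p = 0.172) and quantile normalization (0.31, adjusted p = 0.125). The median of the 7 was 0.37 with ES in FDX1-OE cells and 0.06 in control cells, beside 0.25 and 0.09 over all rows.

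Genes beside the cluster were read for comparison. BBS2, a subunit of the complex that moves proteins in cilia, begins at -141 kb on the same scale of distance from MT2A. It was at 14.5 and 14.9 FPKM in FDX1-OE ES libraries, against 4.23 and 3.59 FPKM in FDX1-OE DMSO libraries. Control cells had 8.19 and 9.09 FPKM with ES, against 3.73 and 3.88 FPKM with DMSO. ES libraries lay above DMSO libraries in both kinds of cell, while FDX1-OE and control libraries overlapped in DMSO. The ES effects were 1.68 (SE 0.10, adjusted p = 1.24e-05) in FDX1-OE cells and 1.00 (SE 0.10, adjusted p = 0.00269) in control cells. Their difference was 0.68 (SE 0.14, adjusted p = 0.0153), lost without either control DMSO library, FDX1-OE DMSO replicate 2 or control ES replicate 1 (adjusted p = 0.0527 to 0.0667). Of the 5 neighbours tested, 2 rose and 1 fell with ES in FDX1-OE cells, beside 47.1% and 13.7% of all rows. In control cells 1 rose, beside 6.74% of all rows. NUDT21, a subunit of a messenger RNA cleavage factor, rose by 0.33 in FDX1-OE cells (adjusted p = 0.00383), but by 0.041 with median-ratio scaling (adjusted p = 0.634). NUP93, a nuclear pore protein, fell by 0.25 on the log2 scale (adjusted p = 0.0245), a call lost without either FDX1-OE DMSO library or FDX1-OE ES replicate 1 (adjusted p of up to 0.148). Between FDX1-OE and control cells in ES 3 of 5 were higher and 1 lower, beside 31.1% and 10.4% of all rows. Of these, NUDT21 (adjusted p = 0.304) and HERPUD1 (adjusted p = 0.196) were lost with median-ratio scaling. NUDT21 was also lost without either control ES library, HERPUD1 without any 1 of the 4 DMSO libraries, control ES replicate 1 or FDX1-OE ES replicate 1, and NUP93, the lower one, without control ES replicate 2 (adjusted p = 0.0518 to 0.224 over these). In DMSO 0 of 5 were called, and in the interaction 1 of 5 was higher, beside 13.9% of all rows. The BBS2 promoter window held 1 match to the metal response element core, as 29.6% of promoters held at least 1.

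Over the 8 libraries each tested metallothionein followed the mean of the standardized family with a Pearson r of 0.994 to 0.997, and MTF1 followed it with an r of 0.879. These values describe 8 libraries that fall into 4 groups, so they mostly restate the group means. Of 6785 rows ranked, those outside the family closest to that mean were PSAP (0.994), SLC25A51 (0.992), HMGN2 (0.990), BRD8 (0.989) and PPP1R16B (0.988). PSAP encodes the precursor of the lysosomal saposins and averaged 230 ± 6.53 FPKM in FDX1-OE ES, 209 ± 9.92 in control ES, 157 ± 0.685 in FDX1-OE DMSO and 168 ± 1.92 in control DMSO (SD, n = 2 each). The rows closest to MTF1 were PI4KB (0.994), SOCS1 (0.987), TBC1D7 (0.986), TNRC18 (0.980) and CANT1 (0.979).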

How the data were processed

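RNA sequencing of 8 WSU-DLCL2 libraries was used. The deposited values are taken as FPKM, fragments scaled by the authors to gene length and library size. The files carry no unit, and FPKM was inferred from values that are not whole and whose totals differ. The submitters' processing notes list hg19, HTSeq, HISAT2 and R 3.2.0 without roles; which tool made the FPKM and how strands were treated is not given in the sources used here. The commonest low value lay between 0.139 and 0.164 FPKM over the libraries, the highest 1.18 times the lowest. Whether it stands for the same fragment count and gene length in each library was not checked, so it does not settle their relative depths. In the files 1059 rows share a symbol with another, 38 of them tested, and none is named here.

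Values were analysed as log2(FPKM + 1). A row was tested if 2 or more libraries reached 1 FPKM, which 12063 of 60592 did. The fit was limma 3.58.1 (R 4.3.3) over the 8 libraries, with a mean for each of 4 groups and a variance trend (4 residual and 4.25 prior degrees of freedom). Tests were two-sided; calls needed a p below 0.05 after Benjamini-Hochberg adjustment across every tested row. SE and adjusted p come from this fit. All 9 genes are named. Beyond them the rule names FDX1, up to 4 called members of each list with the smallest p, and the 5 rows most like the metallothionein mean and the 5 most like MTF1, among rows averaging 3 or more on the log2 scale. NUP93 and MT1DP fall under the lists of cluster neighbours and further metallothionein rows. The other lists were MTF1 targets, factors acting on metallothionein promoters, copper transport, the metal and oxidant response, and markers of 4 cell classes. Genes and lists were chosen with earlier results of these data known. Alternatives were other pseudocounts (0.1, 0.5), no filter, a filter of 2 FPKM in 4 libraries, 3 scalings, fits on the 2 groups compared, array weights, no trend, a replicate block and leaving out each library. Promoter sequences are from RefSeq (GRCh38.p14).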

Additional observations from a re-analysis of the deposited data

Results flagged for a closer look

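For 5 genes the effect of ES differed between FDX1-OE and control cells by a test of the difference itself, the interaction term of limma with Benjamini-Hochberg adjustment. The difference, FDX1-OE minus control, was 2.13 on the log2 scale for MT1G (adjusted p = 0.00656), 1.71 for MT1H (adjusted p = 0.0134), 1.70 for MT2A (adjusted p = 0.00906), 1.27 for MT1F (adjusted p = 0.0161) and 1.03 for MT1X (adjusted p = 0.00145). MT1H entered the tested rows only through its ES libraries, so its place among these genes is a description and supports nothing. Over all rows 13.9% were called higher and 5.06% lower in the interaction. In each of these genes both FDX1-OE ES libraries were above both control ES libraries, as in 50.6% of all rows. Both FDX1-OE DMSO libraries were below both control DMSO libraries in each, as in 19.5% of all rows. With 2 libraries a group, no search for a library that stands apart within its group could be made.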

How the results depend on the processing

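Fold changes under alternatives were read for the 5 tested metallothioneins, and for the pseudogene MT1DP with ES in FDX1-OE cells. Of these 488 values, 476 kept both direction and side of the threshold, 12 kept the direction and lost the call, and 0 changed direction. No filter, the stricter filter and fits on the 2 groups compared leave the fold change as it was. So do array weights, no trend, a replicate block or a left-out library outside the comparison. The direction of a fold change could therefore not turn under any of these. Between FDX1-OE and control cells in DMSO no call stood to be lost. Leaving out 1 library at a time, the members called between FDX1-OE and control cells in ES numbered 2 to 5, and those called in the interaction 3 to 5; with no filter the interaction called 3, MT1F (adjusted p = 0.0681) and MT1H (adjusted p = 0.0619) being lost as more rows were tested. With a pseudocount of 0.1 MT1H was not called between FDX1-OE and control cells in ES (adjusted p = 0.124), and its interaction was 3.34; the cause was not tested. MTF1 changed sign with quantile normalization, to -0.086 between FDX1-OE and control cells in ES, -0.081 with ES in FDX1-OE cells, -0.076 with ES in control cells and -0.0042 in the interaction, and with median-ratio scaling to -0.026 with ES in control cells. With equal FPKM totals MTF1 was called between FDX1-OE and control cells in ES (0.28, adjusted p = 0.0331). With median-ratio scaling FDX1 changed sign with ES in FDX1-OE cells, where it was called lower (-0.23, adjusted p = 0.0159). It also changed sign in the interaction (-0.045, adjusted p = 0.773). With equal FPKM totals FDX1 was called higher with ES in FDX1-OE cells (0.19, adjusted p = 0.0283). In the main fit that effect was 0.053 and was not called.

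Rows called numbered 5008 between FDX1-OE and control cells in ES (2511 to 6606 over the alternatives), 7334 with ES in FDX1-OE cells (5538 to 8537), 934 with ES in control cells (28 to 2523), 2291 in the interaction (539 to 3868) and 1 between FDX1-OE and control cells in DMSO (1 to 4).

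Same-numbered replicates did not deviate together (correlations of -0.05 to 0.08), so the numbers were not taken as pairs. With the replicate number as a block, 5 members were called between FDX1-OE and control cells in ES, 0 in DMSO, 6 with ES in FDX1-OE cells, 5 with ES in control cells and 5 in the interaction, as without the block; among named genes beyond these it ended only the HSF1 and SELENOW calls with ES in control cells. Rows called were 4843, 1, 7235, 705 and 1922 in that order. The depth is unknown, so no floor is given for MT1A, MT1M and MT1E, and 2 libraries a group limit every comparison.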

Other observations

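Genes of copper transport and of the metal and oxidant response, which share inducers with the metallothioneins, gave values beside theirs. Of 12 metal and oxidant response genes, 7 rose and 2 fell with ES in FDX1-OE cells, beside 47.1% and 13.7% of all rows, and 4 rose in control cells, beside 6.74%. TXNRD1, a thioredoxin reductase among the 7, was lost with median-ratio scaling (adjusted p = 0.378). Of the 4 in control cells, SLC7A11 (adjusted p = 0.0746) and HSPB1 (adjusted p = 0.0683) were lost with quantile normalization. Both were also lost without any 1 of the 4 control libraries. NQO1 was lost there with no filter (adjusted p = 0.0644), and without control DMSO replicate 2 or control ES replicate 2. Between FDX1-OE and control cells in ES 5 were higher and 3 lower, beside 31.1% and 10.4% of all rows, and in DMSO 0 were called. In the interaction 3 were higher and 1 lower, beside 13.9% and 5.06% of all rows. Of these, DNAJB1, the lower one, was lost with equal FPKM totals (adjusted p = 0.0825) and NQO1 with no filter (adjusted p = 0.0669). DNAJB1, NQO1 and SLC7A11 were also lost in some fits without a single DMSO or control ES library. HMOX1, which degrades haem, rose by 3.37 in FDX1-OE cells (SE 0.15, adjusted p = 3.80e-06) and by 1.96 in control cells (SE 0.15, adjusted p = 0.000825), with an interaction of 1.41 (adjusted p = 0.00657). Of 11 copper transport and chaperone genes tested, 3 rose and 3 fell with ES in FDX1-OE cells, and 1 rose in control cells, beside the same shares of all rows. COX11, a cytochrome oxidase assembly factor among the 3 that rose, was lost with median-ratio scaling (adjusted p = 0.0691). Between FDX1-OE and control cells in ES 1 was higher and 3 lower, beside 31.1% and 10.4% of all rows. COMMD1, the higher one, was lost with median-ratio scaling (adjusted p = 0.279). ATOX1 (adjusted p = 0.145) and CUTA (adjusted p = 0.190), among the 3 lower, were lost with equal FPKM totals. Over all 19 alternatives of this comparison the call was lost in 10 for ATOX1, 9 for COMMD1, 5 for CUTA and 2 for SCO2, the third lower gene. None, 0 of 11, was called in DMSO or in the interaction. SCO2, a copper chaperone of cytochrome oxidase assembly, fell by 0.80 on the log2 scale with ES in FDX1-OE cells (SE 0.14, adjusted p = 0.00136). COMMD1, a protein of copper export, rose by 0.56 in FDX1-OE cells (SE 0.09, adjusted p = 0.00121) and by 0.57 in control cells (adjusted p = 0.0163), where the call was lost without any 1 of the 4 control libraries (adjusted p = 0.0604 to 0.105).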
